A study of Mus musculus with 8 samples.

Results

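The 10 genes described here encode enzymes of serine synthesis (Phgdh, Psat1 and Psph), of the folate-bound transfer of single-carbon units (Shmt1, Shmt2, Mthfd1, Mthfd2, Mthfd1l and Aldh1l2) and of asparagine synthesis (Asns). They were chosen by name from a table of 27534 genes, each matched exactly 1 row, and all 10 passed the filter on low counts. The table comes from bulk RNA sequencing of pancreatic islets of C57BL/6J mice, kept for 72 h in RPMI 1640 medium with fetal bovine serum at either 20 mM glucose (high glucose, 4 libraries) or 7.5 mM glucose (low glucose, 4 libraries). No genetic change or other agent is named for either group, and neither the sex and age of the mice nor the number of animals behind a library is given in the labels. Isolated islets are clusters of mostly β cells with other endocrine cells and a remnant of exocrine tissue. In bulk RNA a change in the number of cells of a type and a change in RNA per cell cannot be told apart.

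Serine is made from 3-phosphoglycerate, an intermediate of glycolysis: PHGDH oxidises it, PSAT1 transfers an amino group to the product from glutamate, and PSPH removes the phosphate. Serine hydroxymethyltransferase then moves a carbon unit from serine to tetrahydrofolate, in the cytosol (SHMT1) or in mitochondria (SHMT2). In mitochondria MTHFD2 oxidises this unit and MTHFD1L releases it as formate, which the cytosolic trifunctional enzyme MTHFD1 reloads on folate for the synthesis of purines and thymidylate, while ALDH1L2 oxidises mitochondrial formyl-folate to carbon dioxide with formation of NADPH. ASNS makes asparagine from aspartate and the amide group of glutamine. Several of these genes are known targets of ATF4, the transcription factor of the integrated stress response.

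In high glucose 6 of the 10 transcripts rose (Phgdh, Psat1, Psph, Shmt2, Mthfd1l and Asns), 1 fell (Mthfd1) and 3 did not pass the test (Shmt1, Mthfd2 and Aldh1l2). Changes were called with edgeR's quasi-likelihood test at a Benjamini-Hochberg adjusted p under 0.05 over all 15442 genes tested. Of all genes tested, 13.1% were called higher and 11.9% lower. The median log2 fold change of the 10 enzymes was 0.63, against -0.01 over all genes tested. In 8 of the 10 the high and low glucose libraries did not overlap, which was so for 27.3% of all genes tested. When libraries with the same replicate number are compared, 9 of the 10 were higher in high glucose in all 4 pairs and Mthfd1 was lower in all 4. With the replicate number as a block, 8 rose and 1 fell, while 2917 of the 15442 genes tested were called higher and 2862 lower.

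The promoter windows of 3 members are shown because they belong to the transcript with the largest rise (Psat1), to the only one that fell (Mthfd1), and to the only member with a match to the letters TGATGNAA (Asns). TGATGNAA is the core of the C/EBP-ATF response element, to which ATF4 binds with C/EBP partners, and an element of this kind in the Asns promoter is known for its response to amino acid shortage. Each window holds the 250 bases upstream of a RefSeq start site (GRCm38.p6), written 5′ to 3′ on the gene's strand. They lie at chr6:7693210-7693459 on the minus strand (Asns), chr19:15925060-15925309 on the minus strand (Psat1) and chr12:76254982-76255231 on the plus strand (Mthfd1). Capitals mark matches, on either strand, to TGATGNAA, to the GC box GGGCGG and to the CCAAT box.
Asns: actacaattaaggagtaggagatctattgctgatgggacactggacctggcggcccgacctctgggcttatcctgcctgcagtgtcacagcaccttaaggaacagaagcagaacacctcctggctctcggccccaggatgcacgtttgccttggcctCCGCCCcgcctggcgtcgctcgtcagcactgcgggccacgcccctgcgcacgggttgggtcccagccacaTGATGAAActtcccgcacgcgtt
Psat1: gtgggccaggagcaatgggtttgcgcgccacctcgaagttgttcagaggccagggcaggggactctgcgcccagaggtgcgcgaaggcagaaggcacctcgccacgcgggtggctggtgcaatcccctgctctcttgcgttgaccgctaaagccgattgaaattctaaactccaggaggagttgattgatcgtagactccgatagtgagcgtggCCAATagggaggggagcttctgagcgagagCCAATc
Mthfd1: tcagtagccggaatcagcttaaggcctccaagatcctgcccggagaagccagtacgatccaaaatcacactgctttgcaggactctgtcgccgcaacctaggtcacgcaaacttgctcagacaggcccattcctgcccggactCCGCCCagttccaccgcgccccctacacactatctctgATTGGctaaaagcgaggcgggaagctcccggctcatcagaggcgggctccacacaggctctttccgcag

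RefSeq windows were found for 9 of the 10 members by symbol, 10 windows in all since Psat1 has 2, and Aldh1l2 was not matched. TGATGNAA was in 1 of these 10 windows and in 3.45% of all 32851 windows in the table. In Asns it reads TGATGAAA and lies 23 to 16 bases upstream of the RefSeq start. GGGCGG was in 6 of the 10 windows and in 32.7% of all, and CCAAT was in 6 of the 10 and in 33.8% of all. The printed Psat1 window holds 2 CCAAT boxes and no GGGCGG, while that of Mthfd1 holds 1 of each, both on the opposite strand. The other Psat1 window, at chr19:15924623-15924872, holds 1 GGGCGG and no CCAAT. The 3 motifs do not overlap each other in these windows, and such matches describe letters only. The RefSeq starts of the printed and of the other Psat1 window lie 22278 and 22715 bases downstream of the gene start in the deposited table.

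The 3 enzymes that lead from 3-phosphoglycerate to serine all rose, by 2.01-fold to 2.49-fold. Counts are given below as CPM, the usual per-depth unit of counts with library sizes scaled by TMM, in the order of replicates 1 to 4. Psat1 (ENSMUSG00000024640, GRCm38 chromosome 19, 15904678 to 15947337) was at 98, 103, 102 and 89.2 CPM in high glucose and at 37.6, 37.9, 39.1 and 42.9 CPM in low glucose. All high glucose libraries lay far above all low glucose libraries. The mean was 98.1 ± 6.32 against 39.4 ± 2.45 CPM (SD, n = 4 per group here and below), a rise of 2.49-fold (log2 fold change 1.32 ± 0.07 SE, edgeR adjusted p = 3.46e-06).

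Phgdh (ENSMUSG00000053398, chromosome 3, 98313170 to 98339990), which encodes the first enzyme of the branch, was at 124, 117, 116 and 129 CPM in high glucose. In low glucose it was at 53.8, 53, 42.2 and 68.7 CPM. The low glucose libraries were the more variable group, with replicate 3 lowest and replicate 4 highest, and none reached the high glucose range. The rise was 2.23-fold (log2 fold change 1.16 ± 0.13 SE, edgeR adjusted p = 0.000123). Phgdh has many processed copies: transcripts of 22 other GENCODE genes matched it over at least 200 bases at 90% identity or more. Of these, 8 were in the deposited table, none with more than 8.12 reads per library on average against 1900 for Phgdh. How reads that map to several places were treated is not given in the sources used here, so the level of Phgdh is uncertain. Psat1 and Shmt2 also matched a processed pseudogene each, at 91% identity over 1056 bases (Gm12611) and 90.1% over 233 bases (Gm15544). These pseudogenes had 0.375 and 0.25 reads per library on average.

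Psph (ENSMUSG00000029446, chromosome 5, 129765558 to 129787449), the phosphatase of the last step, was at 48.1, 48.9, 54.4 and 39.5 CPM in high glucose and at 22.9, 27.2, 23.2 and 21.8 CPM in low glucose. The groups were again separate, with high glucose replicate 4 the lowest of its group. Psph rose 2.01-fold (log2 fold change 1.01 ± 0.11 SE, edgeR adjusted p = 0.000102). It shares 452 bases with Cct6a, a chaperonin subunit gene on the opposite strand, so that its reads are uncertain without the strand setting. Cct6a itself was at 130 ± 7.13 and 131 ± 12.5 CPM (edgeR adjusted p = 0.952).

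**Figure D1:**
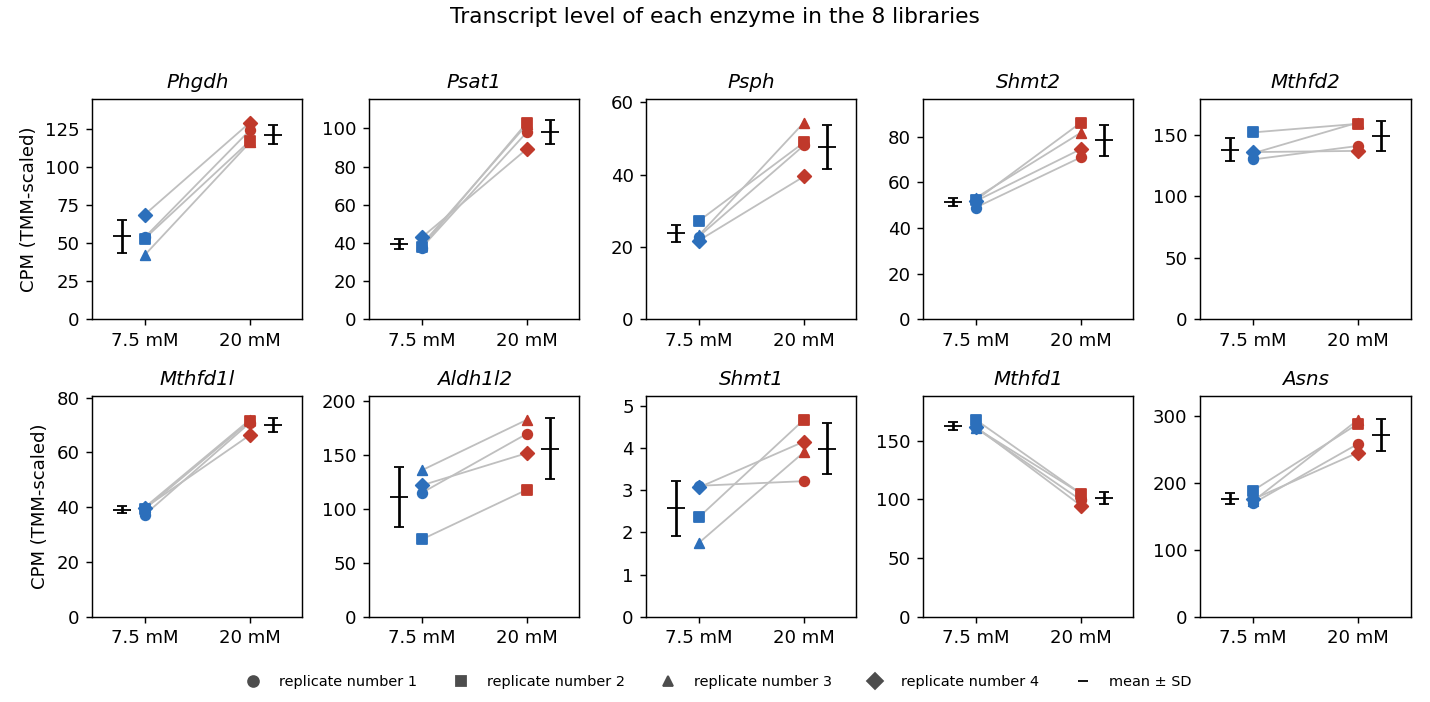
CPM (counts scaled to library depth with TMM, linear axes from 0) of the 10 enzymes in each library, 7.5 mM glucose in blue and 20 mM glucose in red. Symbols and grey lines join libraries of the same replicate number, and bars give the mean ± SD of 4 libraries. Psat1 rises from 39.4 to 98.1 CPM, Mthfd1 falls from 163 to 101 CPM, and the groups of Mthfd2 and Aldh1l2 overlap.

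Of the 2 hydroxymethyltransferases, the mitochondrial enzyme was by far the more abundant transcript and rose. Shmt2 (ENSMUSG00000025403, chromosome 10, 127517123 to 127522444) was at 71, 86.2, 81.8 and 74.6 CPM in high glucose and at 49, 52.2, 53.2 and 51.8 CPM in low glucose. Every high glucose library was above every low glucose library, and the low glucose libraries lay close together. The rise was 1.52-fold (log2 fold change 0.61 ± 0.07 SE, edgeR adjusted p = 0.000265). Shmt2 shares 32 bases with Ndufa4l2 on the opposite strand, which was itself higher in high glucose (3.1 ± 0.737 against 1.56 ± 0.219 CPM, edgeR adjusted p = 0.0111).

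Shmt1 (ENSMUSG00000020534, chromosome 11, 60788104 to 60811718), the cytosolic enzyme, had only 37 to 103 reads per library. It was at 3.22, 4.68, 3.91 and 4.16 CPM in high glucose and at 3.11, 2.36, 1.75 and 3.07 CPM in low glucose. The groups did not overlap, but replicate 1 was almost the same in both. The fold of 1.55 (log2 fold change 0.63 ± 0.22 SE) did not pass, with edgeR adjusted p = 0.0627. With the replicate number as a block it passed (edgeR adjusted p = 0.0414), DESeq2 gave adjusted p = 0.0341, and the authors' deposited table lists an adjusted p of 0.0411. Shmt1 overlaps Smcr8 by 184 bases on the opposite strand, and Smcr8 had the higher level, 46.4 ± 6.2 and 56.4 ± 9.22 CPM (edgeR adjusted p = 0.154), so that the values of Shmt1 are uncertain.

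The 2 enzymes that handle formate moved in opposite directions. Mthfd1l (ENSMUSG00000040675, chromosome 10, 3973118 to 4167081), which releases formate in mitochondria, was at 70.8, 71.4, 71.9 and 66.3 CPM in high glucose and at 37.2, 39.3, 39.9 and 39.7 CPM in low glucose. Libraries within a group differed little beside the gap between the groups. Mthfd1l rose 1.8-fold (log2 fold change 0.85 ± 0.06 SE, edgeR adjusted p = 9.93e-06).

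Mthfd1 (ENSMUSG00000021048, chromosome 12, 76255298 to 76319803), which takes formate up in the cytosol, was at 99.4, 105, 105 and 94.7 CPM in high glucose. In low glucose it was at 161, 168, 161 and 162 CPM. Every high glucose library was below every low glucose library. Mthfd1 fell 1.62-fold (log2 fold change -0.69 ± 0.06 SE, edgeR adjusted p = 4.1e-05), and it was the only one of the 10 to fall.

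The ratio of Mthfd1l to Mthfd1 counts within a library does not depend on how libraries are scaled, and the 2 genes have nearly the same listed length (4435 and 4442 bases). It was 0.713, 0.68, 0.686 and 0.7 in high glucose and 0.231, 0.233, 0.247 and 0.245 in low glucose. The groups were far apart and each was narrow. The ratio was 2.91 times as high in high glucose, a difference of 1.54 in log2 units (two-sided exact permutation test, p = 0.0286, the smallest that 4 against 4 libraries can give). Adjusted over the 5 ratios computed, this p was 0.0714, so the ratio did not pass after adjustment. With only 2 ratios at the smallest possible p, none of the 5 could pass.

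Mthfd2 (ENSMUSG00000005667, chromosome 6, 83305691 to 83325908), the mitochondrial dehydrogenase between SHMT2 and MTHFD1L, differed little. It was at 141, 159, 160 and 137 CPM in high glucose and at 130, 152, 135 and 136 CPM in low glucose. The groups overlapped, although each high glucose library was above the low glucose library of its number. The fold was 1.08 (log2 fold change 0.11 ± 0.08 SE, edgeR adjusted p = 0.354). Its paralogue Mthfd2l, far less abundant, had 8.8 ± 1.42 CPM in low glucose against 6.53 ± 0.887 CPM (log2 fold change -0.43 ± 0.15 SE, edgeR adjusted p = 0.0653). Mthfd2l passed in 6 of 18 alternatives, with edgeR adjusted p = 0.0146 for the replicate block, 0.0434 without high glucose replicate 2 and 0.0496 without low glucose replicate 3. The ratio of Mthfd2 to Mthfd2l counts was 23.1, 20.3, 27.6 and 21.1 in high glucose and 15.8, 14.1, 18.1 and 15.4 in low glucose, without overlap. This ratio was 1.45 times as high in high glucose (exact permutation p = 0.0286, adjusted p = 0.0714).

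Aldh1l2 (ENSMUSG00000020256, chromosome 10, 83487450 to 83534140), which oxidises formyl-folate in mitochondria, was the member that varied most with the replicate number. It was at 170, 118, 183 and 152 CPM in high glucose and at 115, 71.7, 136 and 122 CPM in low glucose. Replicate 2 was the lowest and replicate 3 the highest library of both groups, so that the groups overlapped although all 4 pairs were higher in high glucose. The fold was 1.4 (log2 fold change 0.49 ± 0.19 SE), with edgeR adjusted p = 0.0897. With the replicate block the log2 fold change was 0.50 and passed, with edgeR adjusted p = 0.000136. It also passed without high glucose replicate 2 (0.60, adjusted p = 0.0468) and without both libraries numbered 2 (0.44, adjusted p = 0.00418), and the authors' deposited table lists an adjusted p of 0.0358. Aldh1l2 shares 1056 bases with D10Wsu102e on the opposite strand, whose level was 40.2 ± 4.65 and 35.9 ± 8.27 CPM (edgeR adjusted p = 0.511).

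The other ratios between paired enzymes did not separate the groups. Shmt2 to Shmt1 counts stood at 15.7 to 30 in the low and at 17.8 to 21.9 in the high glucose libraries (log2 difference -0.05, exact permutation p = 0.886). Psat1 to Phgdh counts stood at 0.625 to 0.926 and at 0.692 to 0.885 (log2 difference 0.14, exact permutation p = 0.4). Aldh1l2 to its cytosolic relative Aldh1l1 differed by 0.11 in log2 units (exact permutation p = 0.743), and Aldh1l1 had only 18 to 124 reads per library. The 4 libraries numbered 1 or 4 gave Aldh1l2 to Aldh1l1 ratios of 29.8 to 32.2, replicate 2 gave 37.5 and 23.7, and replicate 3 gave 142 in high and 155 in low glucose.

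**Figure D2:**
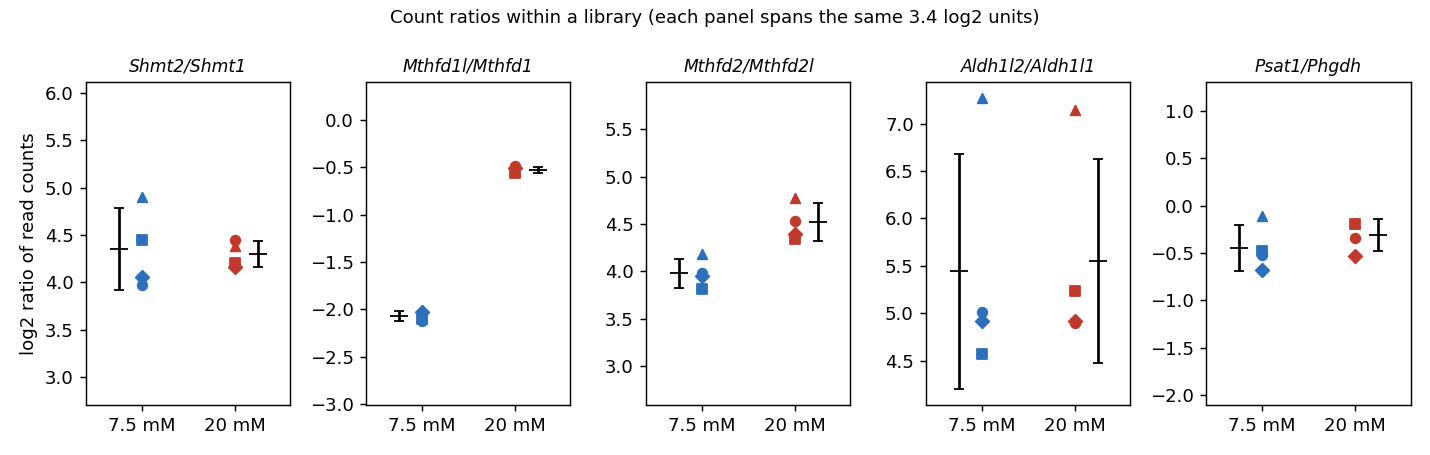
Log2 ratio of read counts of 5 enzyme pairs within each library, at 7.5 mM glucose (blue) and 20 mM glucose (red), with mean ± SD of 4 libraries and the same symbols by replicate number as in the plot of CPM. Mthfd1l/Mthfd1 separates the groups by 1.54 log2 units and Mthfd2/Mthfd2l by 0.54, while the other 3 pairs overlap.

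Asns (ENSMUSG00000029752, chromosome 6, 7675169 to 7693254), asparagine synthetase, had the most reads of the 10. It was at 258, 288, 294 and 245 CPM in high glucose and at 169, 188, 172 and 175 CPM in low glucose. The groups were separate. Asns rose 1.54-fold, from 176 ± 8.35 to 271 ± 23.7 CPM (log2 fold change 0.62 ± 0.08 SE, edgeR adjusted p = 0.000347).

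All 7 calls held in each of the 18 alternative fits run for them, with edgeR, DESeq2 or limma-voom adjusted p of at most 0.00223. The plot of fitted changes shows the 10 log2 fold changes without and with the replicate block. The block left the estimates in place and narrowed the error of Aldh1l2 most.

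**Figure D3:**
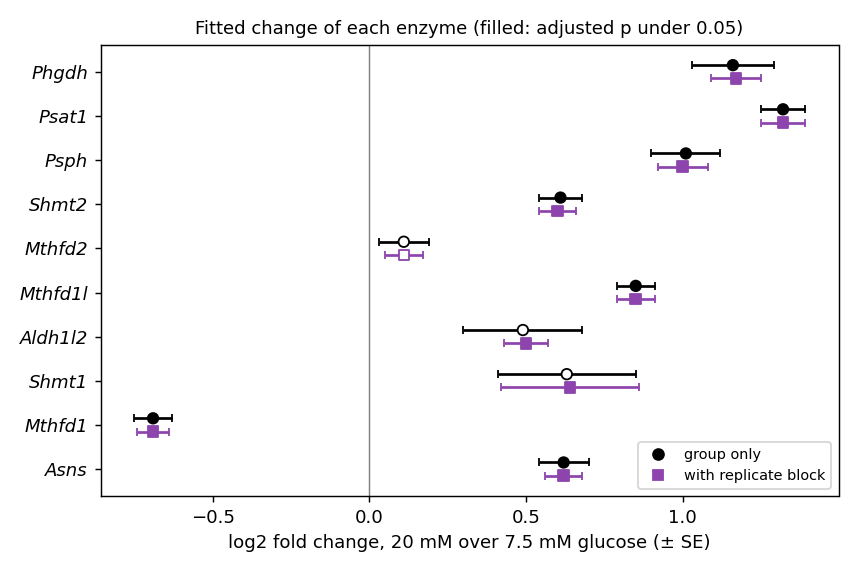
Fitted log2 fold change (20 mM over 7.5 mM glucose) ± SE of each enzyme, with group as the only term (black circles) and with the replicate number as a block (purple squares). Filled symbols have an adjusted p under 0.05. Shmt1 and Aldh1l2 are filled only with the block, and Mthfd2 is open in both.

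Levels of different genes can be compared per length, in the authors' FPKM (reads scaled to gene length and library depth). In both groups Asns was highest, at a mean of 98.1 FPKM in high and 62.8 FPKM in low glucose, and Shmt1 lowest, at 1.02 and 0.647 FPKM. In low glucose Mthfd2 (38.6 FPKM) and Mthfd1 (35.9 FPKM) came next, with ranges that overlapped, and then Phgdh (21.4 FPKM), Shmt2 (16.2 FPKM) and Aldh1l2 (14.5 FPKM), each overlapping its neighbour. Psat1 (9.03 FPKM) and Mthfd1l (8.58 FPKM) overlapped each other, and Psph was at 5.36 FPKM. In high glucose Phgdh (48.3 FPKM) followed Asns, above Mthfd2 (42.4 FPKM), and these 2 did not overlap. Shmt2 (25 FPKM), Psat1 (22.8 FPKM), Mthfd1 (22.5 FPKM), Aldh1l2 (20.6 FPKM) and Mthfd1l (15.6 FPKM) followed with overlapping neighbours, and Psph was at 10.9 FPKM. By mean level Mthfd1 had rank 3 in low and rank 6 in high glucose, and Phgdh rank 4 and rank 2.

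Genes whose profile over the 8 libraries lay closest to a member were found by the root mean square distance of centred log2 CPM, among 10811 genes with at least 5 CPM on average. For Psat1 these were Dapp1, Ptprn and Ell2 (distance 0.063, 0.083 and 0.090). For Phgdh they were Rad18, Tmed6 and Lgi2 (0.116, 0.145 and 0.149), and for Psph Tubb3, Ovol2 and Saraf (0.082, 0.088 and 0.093). Shmt2 lay closest to Ergic1, Syt4 and Tmed10 (0.049, 0.049 and 0.052), Mthfd1l to Rab39b, Hspa13 and Dpagt1 (0.044 each), and Asns to Golph3, Armcx2 and Kcnip1 (0.044, 0.045 and 0.045). The neighbours of Mthfd1 were Chn1, Rnf34 and Sumf1 (0.044, 0.051 and 0.051). Being chosen by likeness over the same 8 libraries, they were bound to be lower in high glucose too, by 1.58-fold, 1.6-fold and 1.63-fold. Phgdh had the most distant neighbours of the 7.

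Around the 10 enzymes, genes of the folate cycle and folate transport moved in part. Of 17 tested, 6 rose and 1 fell, with a median log2 fold change of 0.18. For this and the following lists, the share over all genes tested was 13.1% called higher and 11.9% called lower. Fpgs, which adds the glutamate tail that keeps folate in cells, rose 1.63-fold from 16.3 ± 0.686 to 26.5 ± 1.61 CPM (edgeR adjusted p = 0.000126). Tyms, thymidylate synthase, rose 2.21-fold (edgeR adjusted p = 0.00142). Slc25a32, a mitochondrial folate carrier, rose 1.31-fold (edgeR adjusted p = 0.00252). Atic, which uses formyl-folate in purine synthesis, fell 1.17-fold (edgeR adjusted p = 0.0242). That call was lost without low glucose replicates 3 or 4 (adjusted p 0.0513 and 0.0635), without high glucose replicates 1, 2 or 3 (0.0741, 0.053 and 0.0605), and without a filter on low counts (0.0717). With the replicate block 2 members of the list fell, against 2862 of all 15442 genes tested.

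Of 10 tested genes of glycine cleavage and of the turnover of serine, glycine and threonine, 2 rose and 2 fell. Their median log2 fold change was 0.09. Gldc, the decarboxylase of the glycine cleavage system, rose 2.31-fold from 0.735 ± 0.303 to 1.7 ± 0.446 CPM ( edgeR adjusted p = 0.0258). Amt, the aminomethyltransferase of that system, rose 1.21-fold (edgeR adjusted p = 0.0458). Gcsh, its carrier protein, fell 1.46-fold from 32.7 ± 4.68 to 22.5 ± 1.65 CPM (edgeR adjusted p = 0.0037). Gcat, which cleaves a product of threonine breakdown to glycine, fell 1.64-fold with an adjusted p that rounds to 0.05. Of these 4, Gcsh kept its call in all 18 alternatives, while each of the others lost it when single libraries were left out. For Gldc these were replicates 1 and 2 of high glucose and replicates 1, 3 and 4 of low glucose (edgeR adjusted p 0.0558 to 0.0798). Amt kept its call without low glucose replicate 2 and lost it without each of the other 7 (edgeR adjusted p 0.0504 to 0.126). Gcat passed without high glucose replicate 1 and lost its call without each of the other 7, with adjusted p up to 0.155 over its alternatives.

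In the methionine cycle, methionine salvage and transsulfuration, which take up methyl groups from folate and use serine to make cysteine, 2 of 17 tested genes rose and 7 fell, with a median log2 fold change of -0.10. Cbs, which joins serine to homocysteine, rose 1.58-fold from 93.2 ± 6.26 to 147 ± 11.8 CPM (edgeR adjusted p = 0.000242). Mat1a, a methionine adenosyltransferase, rose 1.27-fold (edgeR adjusted p = 0.00397). Adi1, of methionine salvage, fell 1.56-fold (edgeR adjusted p = 0.00166), and Ahcyl2, a relative of adenosylhomocysteinase, fell 1.26-fold (edgeR adjusted p = 0.00381). With the replicate block 4 rose, against 2917 of all 15442 genes tested. Without low glucose replicate 1 the number that fell was 3, and without low glucose replicate 3 it was 4. Over all genes tested, these 2 fits called 1398 and 1382 lower, against 1831 in the main fit. In the other alternatives 5 to 7 of the list fell, with 5 whenever a high glucose library was left out alone.

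Among genes of aspartate, glutamine and proline metabolism, 6 of 16 tested rose and 2 fell, with a median log2 fold change of -0.01. Genes of proline synthesis were among them: Pycr1 rose 2.31-fold from 40.8 ± 1.68 to 94.2 ± 12 CPM (edgeR adjusted p = 1.61e-05) and Aldh18a1 1.45-fold (edgeR adjusted p = 0.000208). Gpt2, a mitochondrial alanine transaminase, rose 1.51-fold (edgeR adjusted p = 0.000723). Glul, glutamine synthetase, fell 1.41-fold from 427 ± 30.1 to 304 ± 12.3 CPM (edgeR adjusted p = 0.00097). Ass1, which joins citrulline to aspartate, fell 1.84-fold (edgeR adjusted p = 0.00264). The number that fell was 4 when the replicate block was used, and also 4 under scaling by library size alone. Over all 15442 genes tested, these fits called 2862 and 2636 lower.

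Of 20 genes listed as Atf4 and other genes of the integrated stress response, 6 rose and 1 fell, with a median log2 fold change of 0.24. Atf4 was at 403, 457, 436 and 387 CPM in high glucose and at 272, 332, 269 and 290 CPM in low glucose, without overlap, and rose 1.45-fold (edgeR adjusted p = 0.00178). Chac1 rose 1.83-fold (edgeR adjusted p = 3.57e-05), Eif4ebp1 1.79-fold (edgeR adjusted p = 5.33e-05), and Fgf21 2.6-fold at a low level of 1.87 ± 0.362 CPM (edgeR adjusted p = 0.00334). Atf5 fell 1.26-fold (edgeR adjusted p = 0.0109). With the replicate block 10 rose and 4 fell, against 2917 and 2862 of all 15442 genes tested. Scaling by library size alone gave 3 that fell, and leaving out low glucose replicate 2 gave 2 (2636 and 2476 over all genes tested).

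**Figure D4:**
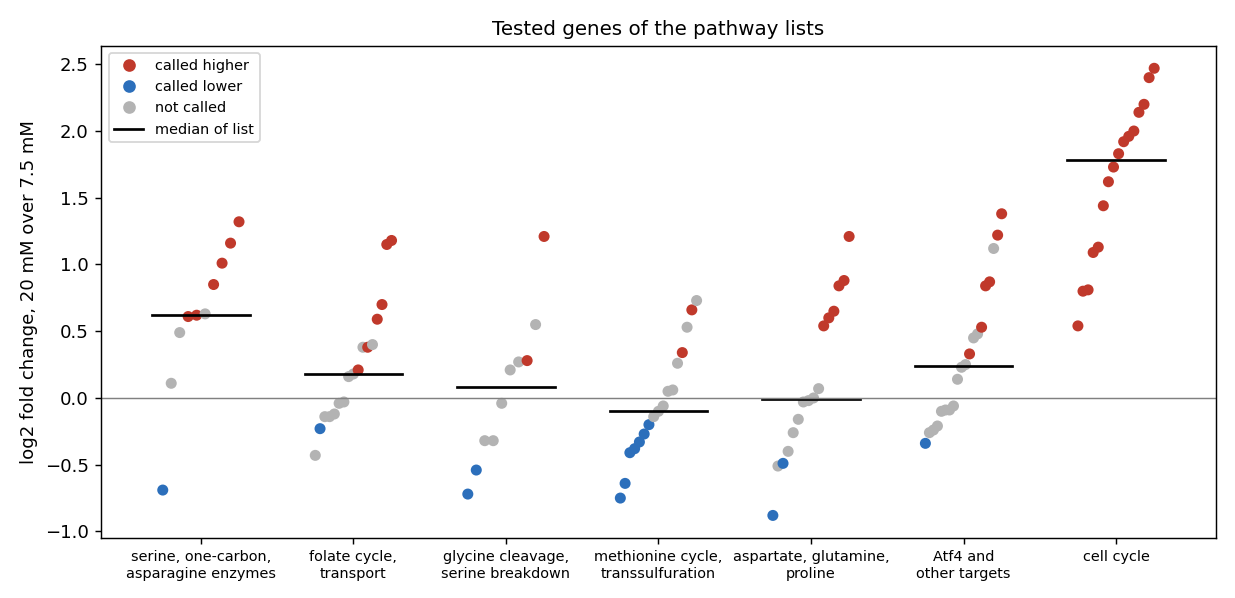
Log2 fold change (20 mM over 7.5 mM glucose) of each tested gene of the 10 enzymes, 5 neighbouring pathway lists and a cell cycle list, with red for called higher, blue for called lower, grey for not called and a black bar for the median. Of the 10 enzymes 6 are red and 1 is blue, and all 16 cell cycle genes are red.

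Other features of the libraries moved with glucose as well. All 16 listed cell cycle genes rose, and their sum went from 112 to 142 CPM in the low to 260 to 347 CPM in the high glucose libraries. The 18 acinar markers, of which 17 were tested, took 0.339% to 1.9% of the counts in high and 0.139% to 1.15% in low glucose, and their sum was higher in high glucose in all 4 pairs. Of the 17, Bhlha15 alone passed with group as the only term. With the replicate block 11 of the 17 rose, against 2917 of all 15442 genes tested. With the log2 sum of the acinar markers as a covariate, the same 6 enzymes rose and Mthfd1 fell. Stellate and fibroblast markers took 0.113% of counts in high glucose replicate 1 and at most 0.0306% in any other library, and the 7 calls held without that library. The part of cell cycle activity and of β- and δ-cell markers in these results was not tested. Total counts were 19543045 to 24949515 per library, and the 10 β-cell markers took 19.6% to 25.7% of them. Of these markers Iapp and G6pc2 rose, while Mafa, Ucn3, Slc2a2 and Slc30a8 fell (edgeR adjusted p of 0.0343 or less). The sum of the 3 δ-cell markers was higher in high glucose in all 4 pairs, at 2493 to 4171 against 1571 to 3075 CPM. Most of this sum was Sst, at 2968 ± 704 against 1885 ± 672 CPM. Hhex and Rbp4 differed little (log2 fold change -0.14 and 0.02, edgeR adjusted p = 0.5 and 0.954). With the replicate block 1 of the 3 δ-cell markers rose, against 2917 of all 15442 genes tested. Without the block Sst had an edgeR adjusted p of 0.0628. With library size alone as scaling, 37.8% of all called genes were higher, against 52.5% with TMM, and the 10 enzymes kept the same calls.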

How the data were processed

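Bulk RNA of 8 islet libraries, 4 per glucose concentration, was analysed from 1 table. Per the file headers, the authors deposited a read count per gene and library, not normalized, and the authors' FPKM. The deposited signal per library equals the count divided by 1 size factor, and a deposited log2 fold change and a deposited p-value per gene hold the authors' comparison; no test used these 3. Per the submitters' processing notes, STAR 2.5, HTSeq 2 and DESeq2 were used with mm10 (GRCm38). Strand setting and annotation release: not given in the sources used here.

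The test was edgeR's quasi-likelihood test (edgeR 4.0.16, R 4.3.3) on the counts of all 8 libraries (filterByExpr, minimum count 10 and minimum total 15; TMM scaling; group as the only term; threshold 0.05 after Benjamini-Hochberg adjustment). Standard errors are the log2 fold change over the square root of its F statistic. Alternatives were DESeq2 1.42.0, limma-voom (limma 3.58.1), other scalings and filters, the replicate block, an acinar covariate and leaving out libraries. Ratios of counts (pseudocount 0.5) were tested by two-sided exact permutation over the libraries. The pipeline was tested on simulated counts, and the outcome is not reported here. Similar transcripts were searched in GENCODE M21 with blastn 2.17.0.

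Members and gene lists were chosen with earlier results of these data known. All members were named. From each list, all genes that passed were named if 5 or fewer, otherwise the 4 of smallest adjusted p plus at most 2 in the opposite direction, with Atf4, Mthfd2l and Aldh1l1 in any case and the 3 nearest profiles of each member called with at least 1.5-fold change. Other genes were named after their values were seen. Some genes that this rule names are not reported here.

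Both groups have replicates 1 to 4 in the labels, and what a number marks is not stated there. Deviations from the group mean correlated between same-number libraries across genes (0.33, 0.665, 0.65 and 0.705 for numbers 1 to 4). On this evidence the numbers were taken as pairs in the replicate block and in comparisons of same-number libraries. The main test and the permutation tests of ratios did not use the pairs. Since the labels do not say that libraries came from separate animals, p-values measure the spread between these libraries, which may be technical. No 2 libraries of a group agreed within sampling noise (chi-square per gene of at least 12.9). A level of 3 counts corresponds to 0.114 to 0.161 CPM, which covers counting error only.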

Additional observations from a re-analysis of the deposited data

Results flagged for a closer look

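Gaps between 1 library and the other 3 of its group, relative to the range of the group, passed Dixon's 95% critical value of 0.829 in 3 of 30 groups tested; chance gives about 1 in 20. Mthfd1 was at 168 CPM in low glucose replicate 2 and at 161 to 162 CPM in the other 3 low glucose libraries. The log2 ratio of Aldh1l2 to Aldh1l1 counts was 7.14 in high glucose replicate 3, against 4.9 to 5.23 in the others, and 7.27 in low glucose replicate 3, against 4.57 to 5.01. In both libraries numbered 3, Aldh1l1 was low (1.27 and 0.852 CPM, 27 and 18 reads), against at least 3 CPM in the other 6.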

How the results depend on the processing

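Each of the 7 called enzymes kept its direction and call in all 18 alternatives run for it. Of the others, Shmt1 passed in 2 alternatives (DESeq2 and the replicate block) and Aldh1l2 in 4, and Mthfd2 passed in none, with adjusted p from 0.127 to 0.754. With the replicate block 2862 genes were called lower over all genes tested, against 1831 without it, and 2917 higher, against 2023; the block ended no call among the 10 enzymes. The fit without both libraries numbered 2 was added after seeing the data. Leaving out 1 library at a time, the log2 difference of the ratio Aldh1l2/Aldh1l1 ranged from -0.43 to 0.72, so that its sign changed, and that of Shmt2/Shmt1 from -0.18 to 0.13; neither was called in any fit, and the cause was not tested. With 3 against 4 libraries the smallest exact p is 0.0286. Read number limits Shmt1 most (37 to 103 reads per library).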
